A study of Mus musculus with 10 samples.

Results

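The genes described here are 99 mouse genes of mucins and of the Golgi enzymes that build and finish sugar chains on them and on other proteins and lipids. They were chosen by name, as every gene with a probe set of its own on the array whose symbol belongs to the Galnt, B3gnt, B3galt, B4galt, B4galnt, Gcnt, Fut, St3gal, St6gal, St6galnac, St8sia, Chst or Muc families, out of 18194 genes with such a probe set. The 99 genes had 193 probe sets, and each gene was represented by the one with the highest mean signal. Signals were compared between 5 arrays of medullary thymic epithelial cells (mTECs) labelled Fezf2 KO, numbered KO 6 to KO 10, and 5 arrays labelled wild type, numbered WT 1 to WT 5. Mice of both groups were 3 weeks old, on a C57BL/6 background, and all cells were sorted from thymus as negative for CD45, a leukocyte marker, positive for EpCAM, an epithelial marker, and CD80-high, CD80 being a costimulatory protein found on the mature cells. The labels name the KO genotype only as that, and neither the deleted part of Fezf2 nor the cells in which it was deleted is given there. Nor do they state whether each array stands for a separate mouse, and the p-values are therefore measures of array-to-array spread alone, part of which may be technical.

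Mucins are large glycoproteins whose repeated serine and threonine residues carry dense O-linked sugar chains. The chains are begun by polypeptide GalNAc-transferases (Galnt genes), branched by Gcnt enzymes, lengthened by galactosyl- and GlcNAc-transferases, and capped with fucose (Fut), sialic acid (St3gal, St6gal, St6galnac and St8sia) or sulfate (Chst). The gel-forming mucins are secreted, whereas the membrane mucins stay on the apical surface of epithelia. Medullary thymic epithelial cells express many genes that are otherwise typical of such peripheral tissues, and show them to developing T cells. Fezf2 is a zinc finger transcription factor of these cells, and the comparison asks which genes depend on it.

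The targeted gene bore out the labels. Fezf2 signals were 13.8, 18.3, 13.2, 12.1 and 17.7 on KO arrays, against 5239.8, 5054, 5895, 5432 and 5757 on WT arrays (log2 change -7.47, SE 0.07, limma adjusted p = 5.29e-15; exact two-sided permutation test, p = 0.00794, the smallest value that 5 against 5 arrays allow). Epcam averaged 7695 ± 261 on KO arrays and 7344 ± 232 on WT arrays (SD, n = 5 each, as for all such values), and Cd80 717 ± 102 on KO arrays and 812 ± 139 on WT arrays. WT 1 and KO 6 stood apart from the other arrays, with 18S rRNA signals of 3762 on KO 6 and 3445 on WT 1, against 765 to 1154 on the other KO arrays and 1226 to 1774 on the other WT arrays. KO 6 lay farthest from its group's median in 41 of the 73 genes tested, and WT 1 in 24. Xist, transcribed in female cells, was between 21.1 and 30.0 on KO 6, KO 8 and WT 2 and at least 5304 on the others. Some of the results in which KO 6 or WT 1 stood out are therefore also given without 1 or both of them.

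Of the 99 genes, 73 had a signal above the 40th percentile of the array on at least 5 arrays and were tested, within a fit of 14087 genes. In KO cells 20 of them were lower and 18 higher, and 35 did not pass (limma on log2(signal + 16), Benjamini-Hochberg adjusted p under 0.05 over all genes). Together 52.1% of the tested members passed, against 29.2% of all genes, with 16.2% of all genes lower and 13% higher. The median log2 change was 0.003 for the members and -0.03 for all genes, and the median size of the change regardless of direction was 0.26 for the members and 0.15 for all genes. In 15 members every KO value lay below every WT value and in 12 every KO value lay above, against 12% and 10.1% of all genes. The size reached 2-fold in 3 lower and 2 higher members, against 1.01% and 1.19% of all genes. When any 1 array was left out, 14 to 19 members were lower and 13 to 17 higher. Without both WT 1 and KO 6, 21 were lower and 18 higher. In a bulk sample, fewer cells of a type and less RNA per cell cannot be told apart, and this holds for every difference given here. All fold changes are on the log2(signal + 16) scale, on which the change of a weakly detected gene comes out too small.

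**Figure D1:**
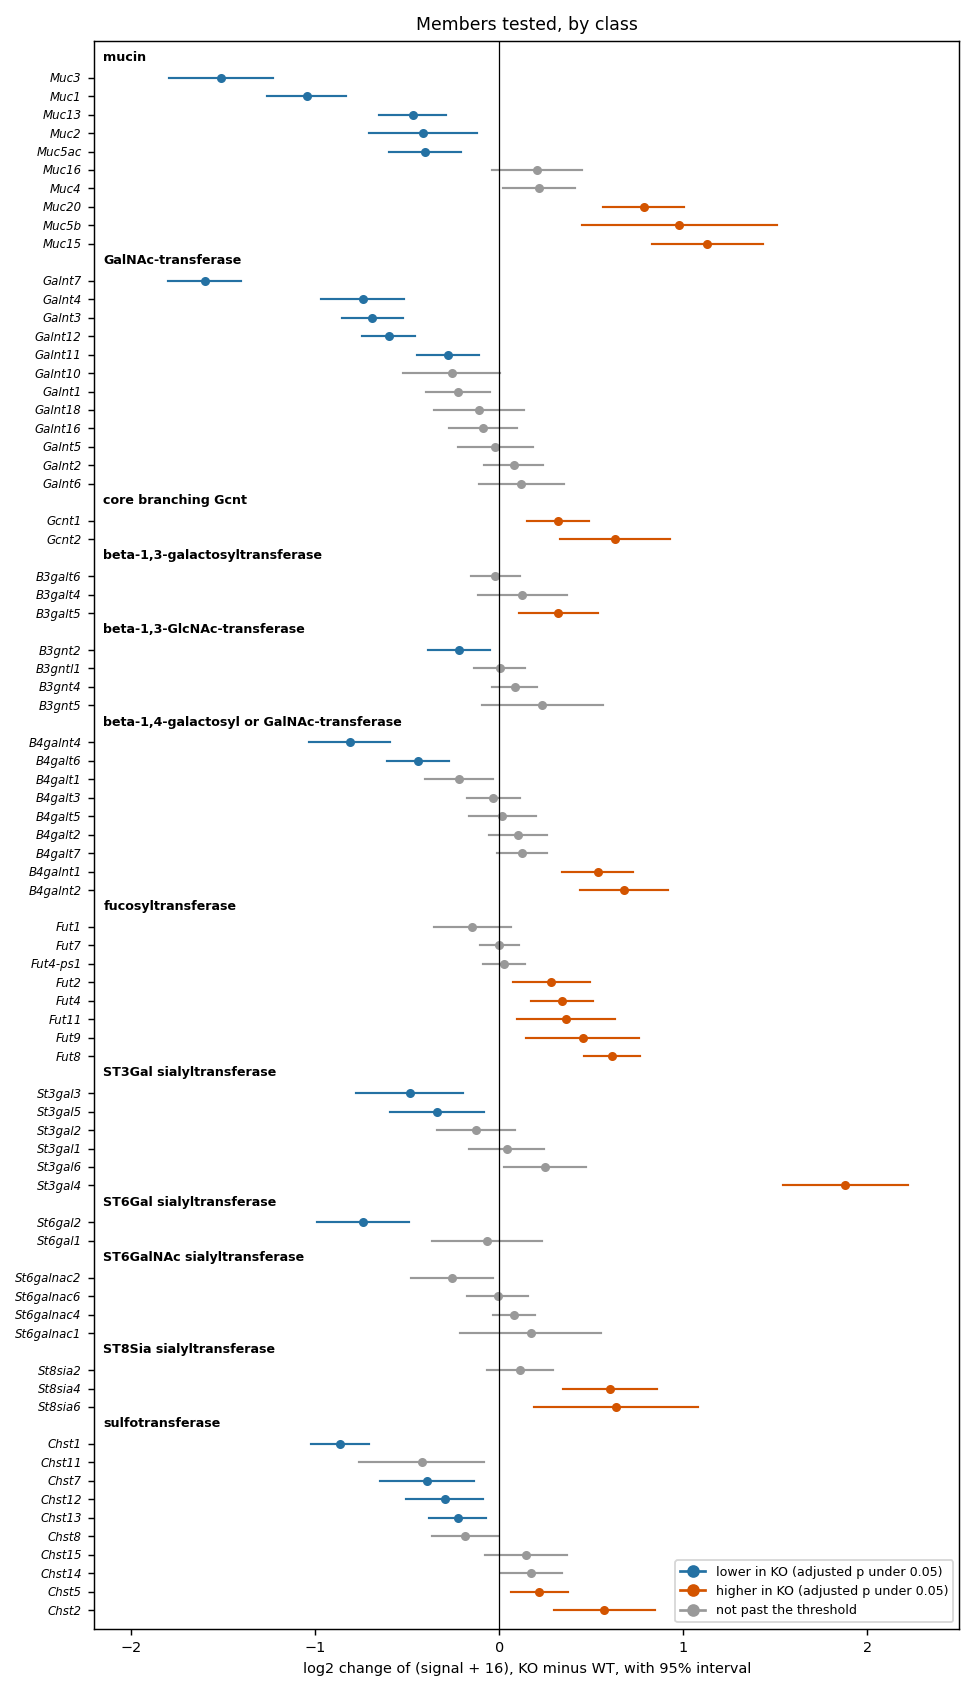
Log2 change of (signal + 16), KO minus WT, for the 73 genes tested, grouped by class. Points are fitted changes and lines 95% intervals (limma, 5 arrays a group), coloured by whether the gene was lower, higher or not past an adjusted p of 0.05. The largest fall was that of Galnt7 (-1.60) and the largest rise that of St3gal4 (1.88).

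Mucin genes changed in both directions. All 10 measured mucin genes were tested, and 5 were lower, 3 higher and 2 not past the threshold in KO cells, with a median log2 change of -0.10. Together 80% passed, against 29.2% of all genes. The membrane mucins Muc3, Muc1 and Muc13 and the gel-forming mucins Muc2 and Muc5ac were lower. The membrane mucins Muc15 and Muc20 and the gel-forming mucin Muc5b were higher. KO and WT values did not overlap in any of these 8 genes. Of all genes 12% had every KO value below every WT value and 10.1% every KO value above.

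Muc3, a membrane mucin of the intestinal surface, had signals of 93.4, 109, 136, 112 and 116 on KO arrays 6 to 10, against 403, 373, 419, 335 and 252 on WT arrays 1 to 5. Each KO value was below the lowest WT value, and the fall was 2.85-fold (log2 change -1.51, SE 0.13, limma adjusted p = 5.99e-06). Muc1, a membrane mucin of most glandular epithelia, had 499.9, 412, 411, 400.0 and 387 on KO arrays, against 971, 1025, 929.8, 762 and 769.5 on WT arrays. KO 6 was the highest KO array here and still lay well below WT 4, the lowest WT array, with a fall of 2.07-fold (log2 change -1.05, SE 0.10, limma adjusted p = 1.15e-05). Muc13, another membrane mucin of the gut, had 531, 496, 586, 443 and 468 on KO arrays, against 759.6, 725, 728, 689.7 and 614 on WT arrays (log2 change -0.47, SE 0.08, limma adjusted p = 0.0012). The gap between the groups was narrow for Muc13, from 586 on KO 8 to 614 on WT 5. The tested probe set of Muc13 is of the kind that can share sequence with other transcripts, and a second one gave a change of -0.24.

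Muc2, the main gel-forming mucin of intestinal goblet cells, had 68.1, 114, 119, 113 and 117 on KO arrays, against 153, 165, 122, 127 and 161 on WT arrays (log2 change -0.41, SE 0.14, limma adjusted p = 0.0366). KO 6 was far below the other KO arrays, which lay just under the lowest WT values. The call of Muc2 was lost without KO 7 (adjusted p = 0.0507), WT 1 (0.0654), WT 2 (0.0841) or WT 5 (0.0831), and without both WT 1 and KO 6 (change -0.27, limma adjusted p = 0.0551). Muc5ac, a gel-forming mucin of the stomach surface and airways, had 179, 222, 202, 244 and 202 on KO arrays, against 266, 325, 248, 284 and 288 on WT arrays (log2 change -0.40, SE 0.09, limma adjusted p = 0.0053).

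Muc15, a membrane mucin, had 511, 511, 578, 451 and 371 on KO arrays, against 229.6, 186, 157, 244 and 250.2 on WT arrays. All KO values were above all WT values, and the rise of 2.19-fold was the largest among the mucins (log2 change 1.13, SE 0.14, limma adjusted p = 8.43e-05). Muc5b, a gel-forming mucin of airways and salivary glands, had 383, 155, 155, 132 and 154 on KO arrays, against 117, 80.2, 83.9, 88.2 and 57.3 on WT arrays (log2 change 0.98, SE 0.24, limma adjusted p = 0.0096). KO 6 and WT 1 were each the highest array of their group, and its change of 0.72 with KO 6 left out, 1.08 with WT 1 left out and 0.83 with neither array still passed. Muc20, a membrane mucin, had 106, 86.6, 89.4, 68.6 and 72.3 on KO arrays, against 46.3, 41.3, 44.7, 42.5 and 35.3 on WT arrays (log2 change 0.78, SE 0.10, limma adjusted p = 0.000128). The very large membrane mucins Muc4 and Muc16 did not pass. Muc4 averaged 206 ± 25.1 in KO and 174 ± 15.1 in WT cells (SD, n = 5 each; log2 change 0.22, 95% interval 0.02 to 0.41), and Muc16 averaged 60.7 ± 6.36 in KO and 51.2 ± 12.3 in WT cells (log2 change 0.20, 95% interval -0.04 to 0.45). Muc4 passed without KO 9 (limma adjusted p = 0.0298) and Muc16 without WT 5 (limma adjusted p = 0.0219).

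In the RefSeq gene order, Muc2, Muc5ac and Muc5b are neighbours in a row, and Muc4 and Muc20 are neighbours whose annotated spans overlap. The adjacent Muc2 and Muc5ac both fell, with log2 changes of -0.41 and -0.40, and the next gene Muc5b rose. Muc4 (0.22, not past the threshold) had the same sign as its neighbour Muc20, and the difference between them was not tested. The tested probe set of Muc4 is of the kind that can share sequence with other transcripts, and a second one gave 0.12. The span of Muc15 overlaps that of Ano3. Whether a probe set of an overlapping pair also detected the other gene was not tested.

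**Figure D2:**
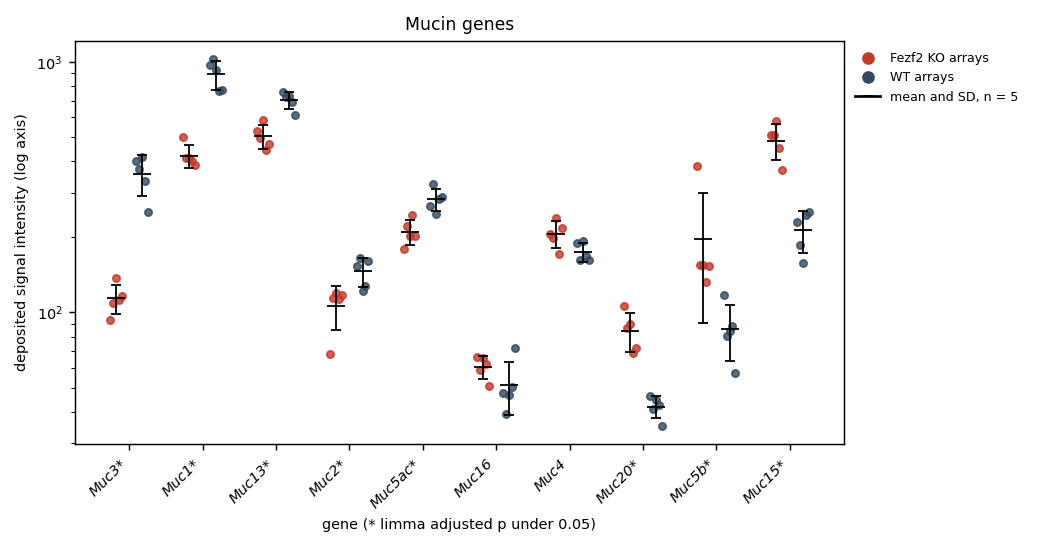
Deposited signal intensity (log axis) of the 10 mucin genes, with KO arrays left of WT arrays for each gene. Points are single arrays, horizontal marks and bars the mean and SD of 5 arrays, and an asterisk marks an adjusted p under 0.05. KO values lie wholly below WT values for Muc3, Muc1, Muc13, Muc2 and Muc5ac, and wholly above them for Muc20, Muc5b and Muc15, with KO 6 of Muc5b at 383.

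The tested polypeptide GalNAc-transferase genes fell or did not pass. Of 18 polypeptide GalNAc-transferase genes, 12 were tested, and 5 were lower, none higher and 7 not past the threshold in KO cells, with a median log2 change of -0.24. Together 41.7% passed, against 29.2% of all genes, of which 16.2% were lower. KO values were wholly below WT values for all 5, as for 12% of all genes. Between 5 and 7 were lower, and none was higher, when any 1 array was left out. In the fit without a filter the weak Galnt13 was also lower (-0.13, limma adjusted p = 0.0108) and the weak Galnt14 higher (0.13, limma adjusted p = 0.0461).

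Galnt7, an enzyme that acts mainly on peptides already carrying a GalNAc, had 114, 114, 104, 118 and 125 on KO arrays, against 353, 314, 435, 385 and 430.3 on WT arrays. The KO arrays lay close together, all below the lowest WT value, and the fall of 3.03-fold was the largest of all 73 members (log2 change -1.60, SE 0.09, limma adjusted p = 3.23e-07). Its other probe sets gave changes of -1.46 and -1.39. Galnt4, which also acts on partly glycosylated peptides, had 218, 295, 285, 292 and 346 on KO arrays, against 455, 452, 534, 528 and 468 on WT arrays (log2 change -0.74, SE 0.10, limma adjusted p = 0.00023). Its span overlaps that of Poc1b, and a second probe set of Galnt4 gave -0.48. Galnt3, known in mice and humans for the glycan that protects the hormone FGF23 from cleavage, had 126, 125, 152, 125 and 123 on KO arrays, against 228, 197, 226, 211 and 234 on WT arrays (log2 change -0.69, SE 0.08, limma adjusted p = 3.62e-05). A weaker probe set of Galnt3 gave -0.12. Galnt12, known from the human digestive tract, had 235, 275, 262, 254 and 273 on KO arrays, against 438, 369.5, 391, 406 and 405 on WT arrays (log2 change -0.60, SE 0.07, limma adjusted p = 3.72e-05). Galnt11 averaged 172 ± 13.8 in KO and 211 ± 16.8 in WT cells (log2 change -0.28, SE 0.08, limma adjusted p = 0.0168), the smallest of the 5 falls. The widely expressed Galnt1 and Galnt2 had changes of -0.22 (limma adjusted p = 0.0506) and 0.08 (limma adjusted p = 0.455), and the other 5 that did not pass had changes from -0.26 for Galnt10 to 0.12 for Galnt6. Another probe set of Galnt10 gave a change of -0.54 that passed among the probe sets. Without WT 1 both Galnt1 (-0.27, limma adjusted p = 0.0185) and Galnt10 (-0.35, limma adjusted p = 0.0226) were lower.

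**Figure D3:**
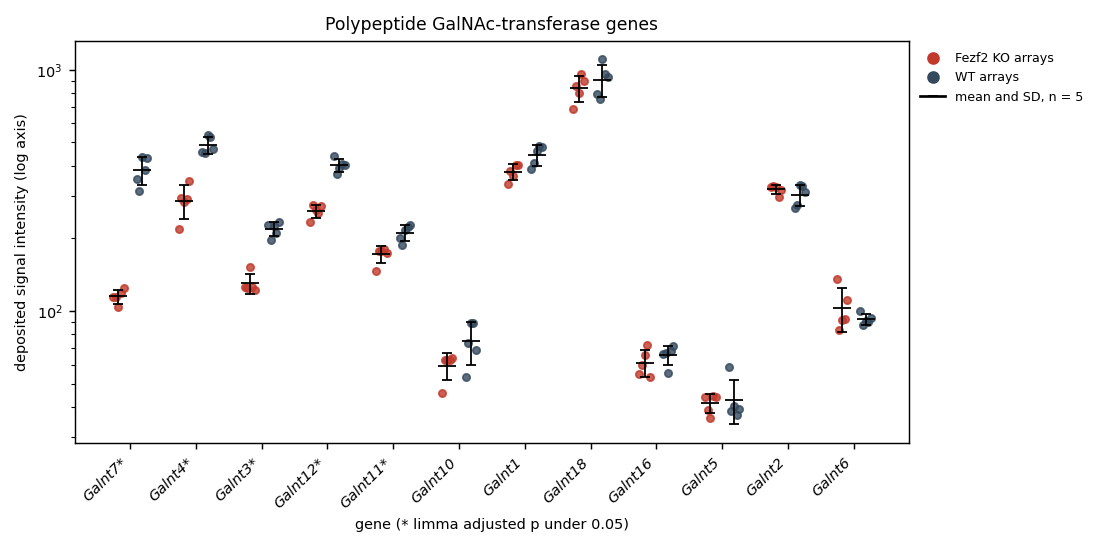
Deposited signal intensity (log axis) of the 12 GalNAc-transferase genes tested, with KO arrays left of WT arrays. Points are single arrays, marks and bars the mean and SD of 5 arrays, and an asterisk marks an adjusted p under 0.05. The 5 genes at the left, Galnt7 to Galnt11, have all KO values below all WT values.

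The promoter windows of the members with a change of at least 2-fold are shown for Galnt7, Muc3 and Muc1, which fell, and St3gal4, which rose. They run from 250 bases before to 50 after the RefSeq start on GRCm38.p6, 5′ to 3′ along the gene's strand. Capitals mark matches, on either strand, to the TATA box TATAAA, the GC box GGGCGG, the CCAAT box, the HNF4 motif CAAAGTCCA and CAAAGGTC, a core of the direct repeats bound by nuclear receptors that was added after the windows had been read.
Galnt7, chr8:57653006-57653305, minus strand: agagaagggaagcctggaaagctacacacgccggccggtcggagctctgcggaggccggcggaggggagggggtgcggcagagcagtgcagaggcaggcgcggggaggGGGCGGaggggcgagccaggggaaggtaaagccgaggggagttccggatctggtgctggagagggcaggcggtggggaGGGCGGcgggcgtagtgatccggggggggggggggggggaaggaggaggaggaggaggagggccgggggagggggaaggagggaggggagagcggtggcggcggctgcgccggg
Muc3, chr5:137165997-137166296, minus strand: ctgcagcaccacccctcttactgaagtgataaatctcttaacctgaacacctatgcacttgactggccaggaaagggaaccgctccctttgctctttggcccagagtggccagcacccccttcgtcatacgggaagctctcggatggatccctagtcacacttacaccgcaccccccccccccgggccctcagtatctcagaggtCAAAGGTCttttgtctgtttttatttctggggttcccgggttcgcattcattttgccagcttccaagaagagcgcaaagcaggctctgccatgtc
Muc1, chr3:89228806-89229105, plus strand: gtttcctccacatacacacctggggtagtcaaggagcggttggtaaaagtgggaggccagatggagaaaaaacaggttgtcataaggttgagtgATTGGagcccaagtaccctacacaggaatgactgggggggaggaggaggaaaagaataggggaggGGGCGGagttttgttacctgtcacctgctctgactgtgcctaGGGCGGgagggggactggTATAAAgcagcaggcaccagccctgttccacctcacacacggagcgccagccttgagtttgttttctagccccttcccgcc
St3gal4, chr9:35116815-35117114, minus strand: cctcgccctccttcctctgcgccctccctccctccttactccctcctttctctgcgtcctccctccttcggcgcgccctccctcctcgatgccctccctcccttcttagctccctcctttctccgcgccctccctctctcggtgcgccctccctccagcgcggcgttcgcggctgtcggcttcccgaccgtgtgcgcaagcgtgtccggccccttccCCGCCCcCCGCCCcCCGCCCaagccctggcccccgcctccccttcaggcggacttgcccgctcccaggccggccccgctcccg

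The 4 windows differed in make-up. G and C made up 75.0% of the Galnt7 window and 74.0% of the St3gal4 window, against 54.7% for Muc3 and 55.7% for Muc1 and a median of 52.7% over all 32851 windows. The Muc1 window held a TATA box 31 bases before the start, 2 GC boxes and a CCAAT box on the opposite strand. The Galnt7 window held 2 GC boxes, and that of St3gal4 held 3 in a row on the opposite strand, from 33 to 19 bases before the start. The Muc3 window held no match to the first 4 motifs and 1 to CAAAGGTC, 45 bases before the start. A TATA box was found in 13.6% of all windows, a GC box in 35.7%, a CCAAT box in 37.4%, CAAAGTCCA in 0.5% and CAAAGGTC in 1.2%. Of the lower members with a window 12 of 16 had a GC box, as did 9 of 13 higher and 40 of all 56 tested members with one. CAAAGTCCA occurred in the windows of 1 tested member, Muc13, and CAAAGGTC in those of 2, Muc3 and Fut8. A gene counted if any of its windows matched, whereas the shares of all windows are of single windows. The counts and those shares are therefore not on the same basis, and enrichment was not tested. A match is a description of the letters and not a binding site.

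The tested branching enzymes rose. Gcnt1, the core 2 enzyme that opens a branch on O-glycans, had 846, 1038, 902, 981 and 999 on KO arrays, against 797, 807, 779.6, 644 and 776 on WT arrays (log2 change 0.32, SE 0.08, limma adjusted p = 0.00851). Gcnt2, which branches lactosamine chains into the blood group I structure, had 283, 204, 204, 174 and 165 on KO arrays, against 165, 110.1, 114, 119 and 124 on WT arrays (log2 change 0.63, SE 0.14, limma adjusted p = 0.0046). All KO values were above all WT values in both genes, as in 10.1% of all genes. For Gcnt2 the margin between KO 10 and WT 1 was less than 1. The call of Gcnt2 was kept without WT 1. A second probe set of Gcnt1 gave 0.09, and the others of Gcnt2 gave 0.54 and 0.60. Gcnt3, the mucin-type core 2 and core 4 enzyme of the gut, was too weak to be tested: 4 WT arrays and no KO array exceeded the 40th percentile. Gcnt3 averaged 15.2 on KO arrays and 27.2 on WT arrays, and in the fit without a filter its log2 change was -0.47 (limma adjusted p = 0.000315).

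Among the enzymes that lengthen chains, those that transfer GalNAc to galactose or GlcNAc moved in opposite directions. Of 10 B4galt and B4galnt genes 9 were tested, of which 2 were lower and 2 higher (median log2 change 0.02). Together 44.4% passed, against 29.2% of all genes. B4galnt4, which makes the LacdiNAc unit, had 51.4, 71.8, 48.5, 55.4 and 57.4 on KO arrays, against 97.9, 110.3, 98.2, 129 and 125 on WT arrays (log2 change -0.81, SE 0.10, limma adjusted p = 0.000103). B4galt6, a lactosylceramide synthase, had 116, 124, 123, 115 and 128 on KO arrays, against 196, 164, 157, 153 and 184 on WT arrays (log2 change -0.44, SE 0.08, limma adjusted p = 0.00106). Both fell with every KO value below every WT value, as in 12% of all genes. B4galnt2, the Sda antigen enzyme of the intestine, had 169, 225, 198, 211 and 179.7 on KO arrays, against 87.7, 118, 134, 114 and 133 on WT arrays (log2 change 0.68, SE 0.11, limma adjusted p = 0.000656). B4galnt1, which makes the gangliosides GM2 and GD2, had 519, 679, 716, 625 and 624 on KO arrays, against 385, 417, 421, 472 and 457 on WT arrays (log2 change 0.53, SE 0.09, limma adjusted p = 0.000696). Both rose with every KO value above every WT value, as in 10.1% of all genes. Second probe sets gave 0.37 for B4galnt2 and 0.21 for B4galnt1, whose annotated span overlaps that of Slc26a10. The other 5 genes, B4galt1, B4galt2, B4galt3, B4galt5 and B4galt7, had changes from -0.22 for B4galt1 to 0.12 for B4galt7, and B4galt1 was lower without WT 1 (-0.25, limma adjusted p = 0.0484).

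Of the tested B3galt genes 33.3% passed and of the tested B3gnt genes 25%, near the 29.2% of all genes. Of 5 B3galt genes 3 were tested, and B3galt5, which makes type 1 chains, was higher at 475 ± 26 in KO cells, against 380.4 ± 59.7 in WT cells (log2 change 0.32, SE 0.10, limma adjusted p = 0.0273). The KO and WT values of B3galt5 overlapped, its other probe sets gave 0.05 and 0.18, and the call was lost in 5 of 10 leave-one-out fits, those without KO 7, KO 8, KO 9, WT 2 or WT 5, and with the mean of its probe sets. B3galt4 had a change of 0.13 (limma adjusted p = 0.435). Of 9 B3gnt genes 4 were tested, and B3gnt2, the main enzyme of polylactosamine chains, was lower at 486 ± 32.5 in KO cells, against 569 ± 59.3 in WT cells (log2 change -0.22, SE 0.08, limma adjusted p = 0.0489). That call was lost in 8 of 10 leave-one-out fits, all but those without KO 6 or WT 3, and with quantile normalization, median centring, no filter, the mean of probe sets, eBayes with neither trend nor robust estimation or a block for the presence of Xist signal. B3gnt5 averaged 77.3 ± 12.8 in KO and 64.3 ± 18 in WT cells, a change of 0.23 that did not pass (limma adjusted p = 0.274).

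Fucosyltransferase genes rose or did not pass. Of 9 genes 8 were tested, and 5 were higher, none lower and 3 not past the threshold in KO cells, with a median log2 change of 0.31. Together 62.5% passed, against 29.2% of all genes, of which 13% were higher. Fut8, the sole enzyme of core fucose on N-glycans, had 1132, 1224, 1309, 1236 and 1206 on KO arrays, against 728, 801, 909.9, 729 and 807 on WT arrays (log2 change 0.61, SE 0.07, limma adjusted p = 5.11e-05). Fut4, an enzyme of Lewis x structures, had 201, 229, 214, 222 and 242 on KO arrays, against 189, 151, 189, 160.5 and 172 on WT arrays (log2 change 0.34, SE 0.08, limma adjusted p = 0.00597). These were the fucosyltransferases whose groups did not overlap and whose calls were kept whichever array was left out. Every KO value lay above every WT value in 10.1% of all genes. Fut9, the other main Lewis x enzyme, had 60.5, 32, 28.1, 33.2 and 31.3 on KO arrays, against 31.3, 19.3, 19.6, 23 and 17.8 on WT arrays (log2 change 0.45, SE 0.14, limma adjusted p = 0.0305). The groups of Fut9 overlapped, with KO 6 far above the other KO arrays and WT 1 above the other WT arrays, and the change was 0.39 without both (limma adjusted p = 0.000859). The call of Fut9 was lost in 4 fits, those without WT 2, WT 3, WT 4 or WT 5. WT 2, WT 3 and WT 5 lay below the filter of 21.5 to 22.1, so Fut9 passed it mainly through its KO arrays. Fut2, the secretor enzyme that makes the H antigen on mucins, and Fut11 had changes of 0.28 and 0.36, with calls lost in 9 and 7 of 10 leave-one-out fits. Over those fits between 2 and 4 fucosyltransferases were higher and none was lower. With the Xist block 2 were higher, as with a threshold of 0.01. Fut7, the sialyl Lewis x enzyme of leukocytes, Fut1 and the pseudogene Fut4-ps1 had changes of -1.0e-04, -0.15 and 0.03. Signals of Fut7 (21.1 to 24.8) and Fut4-ps1 (23.4 to 28.9) lay near the filter, where a change comes out too small.

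Sialyltransferase genes gave the largest rise of all members, in a class with changes in both directions. Of 20 genes 15 were tested, with 3 lower, 3 higher and 9 not past the threshold in KO cells. Together 40% passed, against 29.2% of all genes. Every KO value lay below every WT value in 1 gene and above in 1, against 12% and 10.1% of all genes. St3gal4, which caps lactosamine ends with sialic acid and takes part in sialyl Lewis x synthesis, had 501, 358, 393, 335 and 269.8 on KO arrays, against 120.2, 67.2, 85.9, 88.9 and 81.2 on WT arrays. The lowest KO value was more than double the highest WT value, and the rise was 3.68-fold (log2 change 1.88, SE 0.16, limma adjusted p = 4.86e-06). KO 6 and WT 1 were the highest arrays of their groups, and the change was 1.87 without both. Of the other 5 St3gal genes 2 fell and 3 did not pass. St3gal3, with related acceptors, had 62.5, 103, 91.9, 98 and 123 on KO arrays, against 131, 136, 159.7, 145 and 121 on WT arrays (log2 change -0.49, SE 0.13, limma adjusted p = 0.0155), with KO 10 above WT 5. St3gal5, the synthase of the ganglioside GM3, was lower at 162 ± 24.7 in KO cells, against 210.0 ± 32.4 in WT cells (log2 change -0.34, SE 0.12, limma adjusted p = 0.0465), a call lost in 7 of 10 leave-one-out fits, with median centring, with no filter and with the Xist block. St3gal1, St3gal2 and St3gal6 did not pass, at 0.04, -0.13 and 0.25 on the log2 scale. St3gal6 was higher without WT 3 (0.32, limma adjusted p = 0.0235) and without probe sets of shared sequence, where another of its probe sets gave 0.38 (limma adjusted p = 0.028), and St3gal2 was lower with array weights (-0.22, limma adjusted p = 0.0286).

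St6gal2 and St6gal1 put sialic acid on lactosamine in the other common linkage. St6gal2 had 52.5, 47.4, 41.9, 39.7 and 49.5 on KO arrays, against 75.5, 69.6, 117, 95.6 and 85.7 on WT arrays, without overlap (log2 change -0.74, SE 0.11, limma adjusted p = 0.000488). St6gal1, the widely expressed enzyme of the pair, averaged 204 ± 29.8 in KO and 216 ± 48 in WT cells (log2 change -0.06, 95% interval -0.36 to 0.23). None of the 4 tested St6galnac genes, which add sialic acid to the inner GalNAc of O-glycans or to gangliosides, passed, and 1 of them, St6galnac2, had an unadjusted limma p under 0.05. Their changes ran from -0.26 for St6galnac2 (limma adjusted p = 0.0783) to 0.17 for St6galnac1, with 0.08 for St6galnac4 (limma adjusted p = 0.265), and St6galnac2 passed without KO 10 (limma adjusted p = 0.0232). St6galnac1 had 46.4, 38.1, 36.3, 38.1 and 36.5 on KO arrays, against 23.8, 22.4, 25.4, 37.9 and 65.3 on WT arrays. WT 5 was the highest of all, and without it St6galnac1 was higher in KO cells (log2 change 0.36, limma adjusted p = 0.0249).

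Of 3 tested St8sia genes, which add sialic acid to sialic acid, 2 were higher, 66.7% against 29.2% of all genes. St8sia4, a polysialic acid synthase, had 55.9, 62.8, 81.8, 75.9 and 71 on KO arrays, against 57.1, 39.5, 32, 35.9 and 38.2 on WT arrays (log2 change 0.60, SE 0.12, limma adjusted p = 0.00217). Only KO 6 and WT 1 made the groups overlap, and the call was kept without either or both. St8sia6, which makes disialic acid on O-glycans, had 357, 183, 211, 201 and 176 on KO arrays, against 227, 121, 119, 113 and 119 on WT arrays (log2 change 0.63, SE 0.21, limma adjusted p = 0.0357). KO 6 and WT 1 were each far above the rest of their group, and without both the change was 0.64 (limma adjusted p = 8.4e-05). The call of St8sia6 was lost in 7 of 10 leave-one-out fits, all but those without KO 7, KO 10 or WT 1, and with the mean of its probe sets or the Xist block. Its other probe sets gave 0.44 and 0.45. St8sia2, the other polysialic acid synthase, had a change of 0.11 (limma adjusted p = 0.344).

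**Figure D4:**
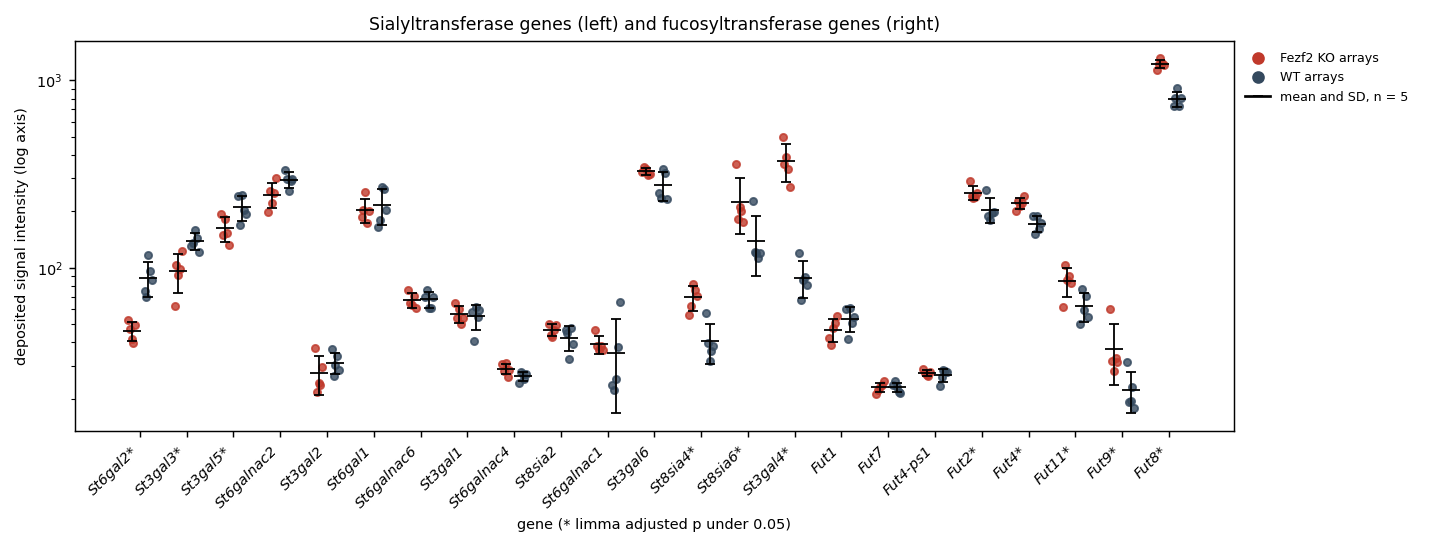
Deposited signal intensity (log axis) of the 15 sialyltransferase and 8 fucosyltransferase genes tested, with KO arrays left of WT arrays. Points are single arrays, marks and bars the mean and SD of 5 arrays, and an asterisk marks an adjusted p under 0.05. St3gal4 lies between 270 and 501 on KO arrays and between 67.2 and 120 on WT arrays, and no fucosyltransferase with an asterisk is lower on KO arrays.

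Sulfotransferase genes of the Chst family changed in both directions. Of 14 genes 10 were tested, and 4 were lower, 2 higher and 4 not past the threshold in KO cells, with a median log2 change of -0.21. Together 60% passed, against 29.2% of all genes. Every KO value lay below every WT value in 1 gene and above in 2, against 12% and 10.1% of all genes. Chst1, which sulfates the galactose of keratan sulfate and of selectin ligands, had 479.5, 565, 503, 601 and 523 on KO arrays, against 901, 1075, 977, 993 and 974 on WT arrays, without overlap (log2 change -0.86, SE 0.07, limma adjusted p = 5.08e-06). Chst2, which sulfates GlcNAc in the same kinds of chain, had 137, 172, 163, 175 and 190.5 on KO arrays, against 81.7, 87.7, 117, 134 and 122 on WT arrays, also without overlap (log2 change 0.57, SE 0.13, limma adjusted p = 0.00492). A second probe set of Chst2 gave 0.26. The other lower genes, Chst7, Chst12 and Chst13, which act mainly on chondroitin sulfate, had changes of -0.39, -0.30 and -0.22, overlapped between groups, and lost their calls in 4, 8 and 7 of 10 leave-one-out fits. Chst7, whose span overlaps that of Slc9a7, and Chst12 also lost them without WT 1 and KO 6. For Chst12, KO 6 to KO 9 and WT 2 lay below the filter of 21.5 to 22.1, so it was tested mainly through its WT arrays. Chst5, a GlcNAc sulfotransferase, rose by 0.22 and lost its call in 6. Over these fits 1 to 4 sulfotransferases were lower and 1 or 2 higher. Chst8, Chst11, Chst14 and Chst15 had changes from -0.42 for Chst11 to 0.17 for Chst14, and Chst11 was lower without WT 1 (-0.49, limma adjusted p = 0.0401) or without KO 10 (-0.49, limma adjusted p = 0.0409).

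**Figure D5:**
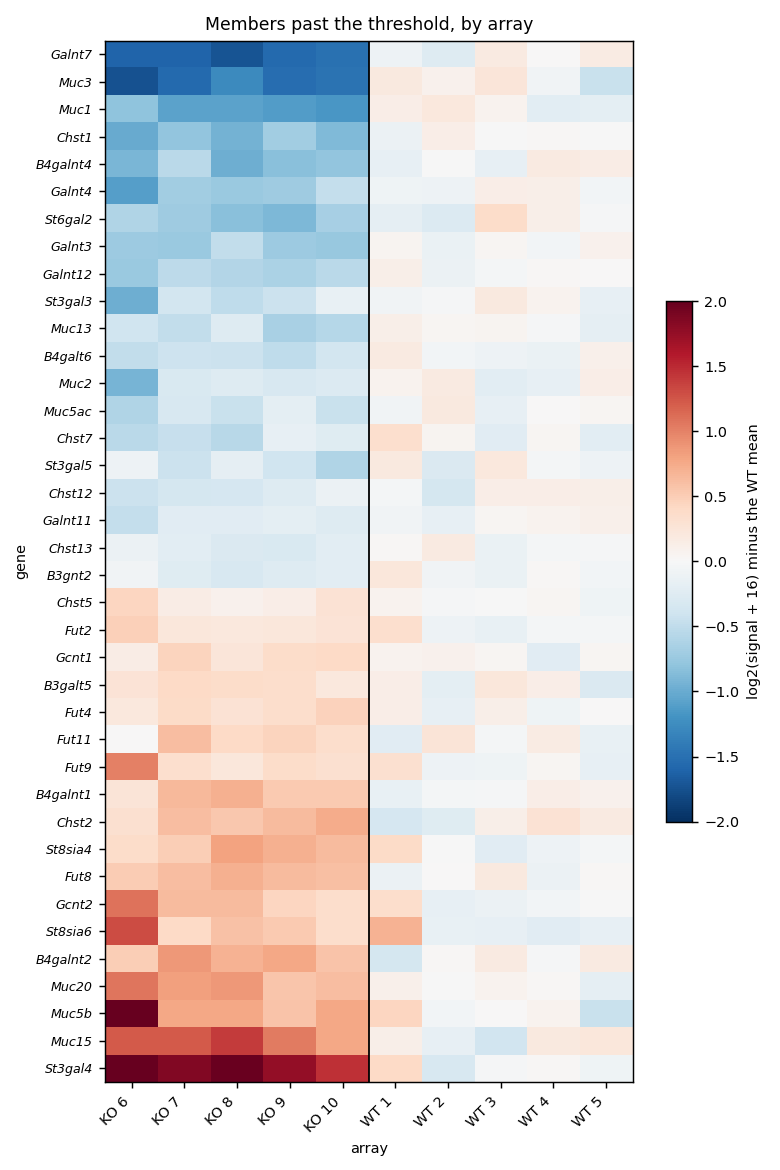
Log2(signal + 16) minus the mean of the WT arrays for the 38 genes past the threshold, in rows ordered by their change, with KO arrays left of WT arrays. The colour scale ends at 2 in either direction. KO 6 departs from the other KO arrays for Muc5b, St8sia6, Fut9 and Muc2, and WT 1 from the other WT arrays for St8sia6.

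The 26 genes without a probe set past the signal filter had signals between 7.48 and 31.9, where the filter lay at 21.5 to 22.1, and were not tested. They were 6 Galnt, 5 B3gnt, 5 sialyltransferase and 4 Chst genes, with 2 of B3galt, 2 of Gcnt, and B4galt4 and Fut10. Among the 35 tested genes that did not pass, the 95% interval of the log2 change lay within 0.5 of 0 for 31, and the widest bounds were -0.76 and 0.57. Of the 38 genes that passed, 24 kept their call and direction in every alternative that gave a value for them, and none turned round in any. In a fit of all probe sets above the filter, the tested probe set of 14 genes with several of them passed. In these 14 no weaker probe set had the opposite sign, and in 10 at least 1 passed in the same direction. B3gnt2 and St3gal5, called in the main fit, did not pass there (limma adjusted p = 0.0564 and 0.0535), nor did their weaker probe sets, which had the same sign.

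Genes that feed or surround these enzymes were described by lists chosen with earlier results of these data known. Of 20 tested genes of sugar nucleotide synthesis 7 were higher and 2 lower (median log2 change 0.05), 45% in all, against 29.2% of all genes. Between 6 and 8 were higher when any 1 array was left out. Gfpt1, the first enzyme of the hexosamine pathway, averaged 3377 ± 352 in KO and 2002 ± 307 in WT cells (log2 change 0.76, SE 0.10, limma adjusted p = 0.000207). Gne, the first enzyme of sialic acid synthesis, averaged 315 ± 58 in KO and 199 ± 17.3 in WT cells (log2 change 0.61, SE 0.11, limma adjusted p = 0.00104). Ugdh, which makes UDP-glucuronic acid, and Cmas, which activates sialic acid, rose by 0.47 and 0.27, while Nans, the sialic acid synthase between Gne and Cmas, fell (log2 change -0.28, limma adjusted p = 0.00378). Of 11 Golgi transporters of nucleotide sugars only the CMP-sialic acid transporter gene Slc35a1 passed (log2 change 0.22, SE 0.08, limma adjusted p = 0.0495), and no transporter did in 7 of 10 leave-one-out fits or without WT 1 and KO 6.

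In the lists of O-glycan, N-glycan, glycosaminoglycan and hydrolase genes, 16.7% to 28.6% of the tested genes passed, against 29.2% of all genes. Of the glycolipid genes 50% of 4 passed. Of 13 tested genes of O-glycan initiation and core synthesis 2 were lower and 1 higher (median -0.10), and 1 to 3 were lower when any 1 array was left out, with medians from -0.16 to -0.01. C1galt1c1, the chaperone Cosmc of the core 1 enzyme, averaged 1038 ± 41.7 in KO and 862 ± 29.1 in WT cells (log2 change 0.26, SE 0.05, limma adjusted p = 0.00244), and the Notch-modifying fringe gene Mfng averaged 124 ± 7.42 in KO and 215 ± 19.5 in WT cells (log2 change -0.72, SE 0.07, limma adjusted p = 2.18e-05). Another fringe gene, Rfng, had a change of -0.24 (limma adjusted p = 0.0477), and that call was lost in 8 of 10 leave-one-out fits, all but those without KO 10 or WT 1. Of 14 tested genes of N-glycan processing 2 were lower and 2 higher (median 0.14), with -0.60 for the branching enzyme Mgat5, -0.28 for Mgat4b, 0.43 for Mgat3, which adds the bisecting GlcNAc, and 0.38 for Man1a2, whose call was lost without WT 1 and KO 6. Of 24 tested genes of glycosaminoglycan chains 2 were lower, Hs3st1 (-0.54) and Csgalnact1 (-0.47), and 2 higher, Ext1 (0.42) and Chpf2 (0.32; median 0.07), the call of Chpf2 being lost in 4 of 10 leave-one-out fits, those without KO 7, KO 8, WT 1 or WT 2. Of 4 tested glycolipid genes 2 were lower, Ugt8a (-0.92) and Gal3st1 (-0.54), the consecutive enzymes of sulfatide synthesis, with a median of -0.23. Of 9 tested glycan hydrolases 2 were higher, Gusb (0.51) and Fuca1 (0.36; median 0.13).

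Galectins, which bind galactose-containing glycans, moved in both directions. Of 8 tested 3 fell and 1 rose (median -0.32), 50% in all, against 29.2% of all genes. Lgals4, a galectin of the gut, had 511, 539.9, 548, 454 and 412 on KO arrays, against 1094, 1121, 939, 798 and 605 on WT arrays (log2 change -0.84, SE 0.15, limma adjusted p = 0.00135). Lgals3 had 2584, 1865, 1908, 1929 and 1714 on KO arrays, against 913, 989, 793, 955 and 1110.3 on WT arrays (log2 change 1.05, SE 0.11, limma adjusted p = 2.89e-05). Lgals2 and Lgals8 had changes of -0.67 and -0.31. Without WT 1 and KO 6, 5 galectins were lower and 2 higher.

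Other genes of mucin-secreting cells were set beside the mucins. Of 13 tested 4 fell and 1 rose in the KO arrays (median -0.17), 38.5% in all, against 29.2% of all genes. Their summed signal was 9616 to 10710 on KO arrays, against 9279 to 12175 on WT arrays. Bpifb1, an airway secretory protein, averaged 202 ± 44.7 in KO and 358 ± 48.1 in WT cells (log2 change -0.79, SE 0.13, limma adjusted p = 0.000776). Retnlb, a goblet cell product, and Fcgbp, a mucus-binding protein, had changes of -0.45 and -0.21, and Creb3l1 one of -0.23. The call of Fcgbp was lost in 5 of 10 leave-one-out fits, those without KO 6, KO 9, KO 10, WT 2 or WT 4. Spdef, a transcription factor of goblet cells, was higher by 0.40 with an adjusted p of 0.0499 (limma), and this call was lost in 8 of 10 leave-one-out fits, all but those without KO 6 or KO 7.

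Of 13 mTEC markers, Fezf2 among them, 2 were lower and 3 higher (75254 to 77783 on KO arrays, against 74050 to 83695 on WT arrays). Markers of other cells were also measured. Over all genes 29.2% passed, 16.2% lower and 13% higher. The shares of the microfold (30%), fibroblast (25%) and tuft cell markers (22.2%) that passed were near this. Of 8 endothelial markers 5 were higher and 1 lower in KO cells, with a summed signal of 1087 to 1302 on KO arrays, against 772 to 1042 on WT arrays. Of 11 tested myeloid markers 4 were lower and 2 higher (4287 to 5468 on KO arrays, against 6186 to 6603 on WT arrays). Such sums weigh the brightest genes most. The median log2 change of the myeloid markers was 0.08. Their mean log2(signal + 16) overlapped, at 7.51 to 7.76 on KO arrays and 7.69 to 7.82 on WT arrays. Of 9 cortical epithelium markers 3 were higher and 1 lower (20551 to 25337 on KO arrays, against 14516 to 17605 on WT arrays). Their mean log2(signal + 16) overlapped, at 9.28 to 10.02 on KO arrays and 9.21 to 9.71 on WT arrays. Of 10 microfold cell markers 3 were higher and none lower (23067 to 24360 on KO arrays, against 21112 to 25349 on WT arrays). Of 9 tested tuft cell markers 2 were lower and none higher (1309 to 2260 on KO arrays, against 1315 to 2893 on WT arrays), and 4 were lower without KO 6 or without WT 3. Of 8 fibroblast markers 2 were higher and of 5 tested B cell markers 2 were higher and 1 lower, while none of 9 tested thymocyte markers passed, the smallest unadjusted limma p being 0.139 for Dntt. Rag2, Themis, Itgax, Cd79a and Pax5 were below the signal filter. Without WT 1 and KO 6, 7 endothelial markers were higher and 1 lower, 4 myeloid higher and 4 lower, 5 cortical higher and 1 lower, 4 microfold higher and 1 lower, 3 fibroblast higher and 1 lower, 3 B cell higher and 2 lower, and 1 thymocyte marker was higher. The part of any of these cells in the changes of the mucins and glycosyltransferases was not tested.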

How the data were processed

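Total RNA of sorted mTECs was labelled with biotin and hybridised to Affymetrix arrays, per the labels' protocols. The authors deposited a linear signal intensity for each probe set. Per the submitters' processing notes it was made with MAS5 (version not given). Scaling, background step and filters are not stated there. For arrays, their number limits the precision, here 5 in each group.

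The table held 45101 probe sets, of which 34958 had 1 gene symbol in the platform annotation, 932 several and 9211 none. Of the 34958, 34754 were matched by Entrez identifier to RefSeq names (GRCm38.p6). No array build is named, so coordinates are given only for RefSeq promoter windows, which the sequence table held for 4 of the 5 genes changed at least 2-fold. Muc15 was the other. A probe set was kept if on at least 5 arrays its signal was above that array's 40th percentile. Each gene was represented by its kept probe set with the highest mean. The log2(signal + 16) was fitted in R 4.3.3 by limma 3.58.1 (lmFit, eBayes with trend and robust estimation), as KO minus WT, without further normalization, with Benjamini-Hochberg adjustment over 14087 genes. Levels were not compared between genes. On simulated arrays of the 14087 genes, the KO minus WT fit recovered 73 of 100 genes changed by 0.5 on the log2 scale. It recovered 97 of 100 changed by 1, with 14 false calls, and with no gene changed it made 0 calls. The simulation changed these genes only, whereas 4119 genes were called in the data. How arrays that stand apart from their group alter such rates was not tested. The simulated rates therefore check the fit and are not error rates of the calls given here.

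The members, lists and tests were chosen with earlier results of these data known. Named members were the 12 largest falls and the 12 largest rises past the threshold, all tested mucins, the 2 smallest adjusted p of each class, and up to 4 members past the threshold of each pathway list. Others named, Gcnt3 among them, complete a count or were chosen after their values were seen. No replicate numbers are shared between the groups. The alternatives were a threshold of 0.01, an offset of 1 or 64, median centring or quantile normalization, a filter raised to the 60th percentile or dropped, averaging a gene's probe sets, omitting those that share sequence, array weights, eBayes with neither trend nor robust estimation, each array left out, WT 1 and KO 6 left out or as a block, and Xist signal as a block.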

Additional observations from a re-analysis of the deposited data

Results flagged for a closer look

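Among 38 named genes, 9 single arrays stood apart from the other 4 of their group by Dixon's criterion at the 95% level (a gap to the nearest array of more than 0.71 of the group's range, tested in 76 groups, of which chance flags about 1 in 20). KO 6 did so in 5 cases, with Muc5b at 383 (the other KO arrays 132 to 155), St8sia6 at 357 (176 to 211), Fut9 at 60.5 (28.1 to 33.2), Muc1 at 499.9 (387 to 412) and Muc2 at 68.1 (113 to 119). WT 1 did so for St8sia6 at 227 (the other WT arrays 113 to 121) and Gcnt2 at 165 (110.1 to 124). KO 8 did so for Galnt3 at 152 (123 to 126), and WT 4 for Gcnt1 at 644 (776 to 807). KO 6 and WT 1 also had the highest 18S rRNA signals, 3762 and 3445, and the part of this in their values was not tested.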

How the results depend on the processing

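The threshold of 0.01 left 12 members lower and 12 higher and 2473 genes called in all, against 20, 18 and 4119 at 0.05. Every other alternative kept these 3 counts within 1.5 times: 14 to 25 members lower, 13 to 19 higher and 3427 to 5563 genes called, the highest number with array weights. Leaving out 1 array gave 14 to 19 members lower, 13 to 17 higher and 3427 to 4207 genes called. The share of tested members called was 32.9% to 65.3% over the 24 alternatives, against 17.6% to 39.5% of all genes, and was the larger in each. The log2 change of Fezf2 ran from -8.43 to -6.13 over all alternatives and from -7.51 to -7.43 with 1 array left out. Among the named members, no called change turned round. Muc4 also passed with the mean of probe sets, and Muc2, St8sia6 and Fut9 lost their calls with Xist signal as a block. No paired analysis was possible because the labels number the KO and WT arrays differently. The scaling of the deposited signals stays unknown, and low signals such as those of Chst12 and Fut9 lie near the filter.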
